A study of Rattus norvegicus with 12 samples.

Results

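The 73 mature miRNA entries described here come from 42 hairpin names of the Dlk1-Dio3 imprinted region of the rat, taken by name from a table of 641 listed miRNAs with all arms and low entries kept. They comprise the miR-379/410 cluster, which runs from miR-379 to miR-410, and hairpins on either side of it, without those antisense to Rtl1. RefSeq's gene table for the assembly GRCr8 places all 42 hairpins between Dlk1 and Dio3 on chromosome 6, among 59 miRNA hairpins there. Small RNA was sequenced from aorta of female spontaneously hypertensive rats (SHR), an inbred strain with high blood pressure. The control group of 6 samples received saline, and the other 6 samples carry the treatment label EWH, a term the labels do not spell out, in a series titled for peptides from egg white. All 12 samples share strain, sex and tissue, and age, dose and length of treatment are unknown here. The design asks which aortic miRNAs differ between the groups. No label says that the samples of a group are separate animals, so a p-value speaks of the spread among these samples alone, and that spread may be technical.

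The Dlk1-Dio3 region carries paternally expressed protein-coding genes and maternally expressed noncoding RNAs, and its miRNAs are cut from long maternally expressed transcripts. The miR-379/410 cluster is a dense run of hairpins specific to placental mammals, and it is best known from brain, embryo and placenta. In vessels, several of its miRNAs have been studied in mouse models of blood vessel growth after ischaemia, where blocking miR-329, miR-487b, miR-494 or miR-495 was reported to improve blood flow recovery. A miRNA pairs with its targets mainly through its seed, bases 2 to 8, so entries with different seeds address largely different transcripts.

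RefSeq (GRCr8) held a mature sequence for 72 of the 73 entries, and these carried 66 different seeds. The 10 entries with the highest mean level are shown because most of the reads fell in them, together with the 3p arms of miR-411 and miR-409a, which resemble or mirror one of them. Sequences run 5′ to 3′, with the seed in capitals, and all 12 lie on the plus strand of GRCr8 except miR-409b, which lies on the minus strand.
miR-409b: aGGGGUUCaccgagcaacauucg
miR-379-5p: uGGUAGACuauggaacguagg
miR-541-5p: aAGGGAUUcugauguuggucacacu
miR-411-5p: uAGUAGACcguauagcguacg
miR-323-3p: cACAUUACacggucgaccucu
miR-382-5p: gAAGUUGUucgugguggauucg
miR-134-5p: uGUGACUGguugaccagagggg
miR-370-3p: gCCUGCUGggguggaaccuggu
miR-379-3p: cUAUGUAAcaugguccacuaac
miR-495: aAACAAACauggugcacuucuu
miR-411-3p: uAUGUAACacgguccacuaa
miR-409a-3p: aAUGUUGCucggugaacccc

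All 21 entries abundant enough to be tested had different seeds. One of them, miR-410-3p, shared its seed with a listed miRNA outside the region, miR-344b-1-3p. The neighbours miR-379 and miR-411 resemble each other: their 5p arms are identical at 14 of 21 aligned bases, and their 3p arms at 19 of 20 when shifted by 1 base, which gives the 3p arms different seeds. MiR-409b is annotated on the strand opposite to miR-409a, and its sequence is the exact reverse complement of miR-409a-3p over all 20 bases of the latter. The table gave miR-409b 20673 reads over the 12 libraries and miR-409a-3p 243 reads. The strand setting of the counting is unknown here, so reads of this pair cannot be told apart, and the value printed for miR-409b may hold reads of either strand. The same holds, among others, for miR-369-5p (1379 reads) and its antisense entry miR-3578 (482 reads), miR-539-5p (329) and miR-3576 (75), miR-337-5p (480) and miR-3544 (4), and miR-299a-3p (69) and miR-299b-5p (4).

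Values are in reads-per-million (rpm) units. The library totals were 23887799 to 24772944 reads, and the listed miRNAs held 76.4% to 80.6% of them. The weight of 1 read was 0.0404 to 0.0419 rpm. A listed 0 allows up to 3 reads, or 0.121 to 0.126 rpm, for counting error only. Defining markers of aorta were abundant in every library: miR-143 and miR-145 of smooth muscle summed to 347010 to 426860 rpm in control and 331970 to 428680 rpm in EWH, and the endothelial miR-126 to 3291 to 12305 rpm and 4264 to 6913 rpm. Over all tested miRNAs, EWH 3 and EWH 4 stood apart: their scores on the leading principal component (46.3% of the variance) were 11.97 and 16.2, and the other 10 libraries scored −7.94 to 4.94. Log2 fold changes, summed levels and calls are therefore also given without these 2 libraries.

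The region's miRNAs were scarce in the aorta, and their summed level was higher in most EWH libraries than in control. The 73 entries together summed to 57.3 rpm in the lowest control library, 91.5 rpm in the median and 132.7 rpm in the highest. In EWH the lowest was 115 rpm, the median 230 rpm and the highest 1168 rpm. Of the EWH libraries, 5 lay above the highest control, EWH 1 narrowly at 136.7 rpm, and EWH 2 lay within the control range. EWH 4 (1168 rpm) and EWH 3 (657 rpm) were far above EWH 5 (282 rpm) and EWH 6 (179 rpm). The group means were 95.4 ± 33.7 rpm and 423 ± 416 rpm (SD, n = 6 per group), and the EWH mean was 178 ± 74.0 rpm (SD, n = 4) without EWH 3 and EWH 4. As a share of all listed miRNA reads the entries made up 0.0073% to 0.0173% in control and 0.0144% to 0.150% in EWH. In these bulk samples, more cells that express the region and more of its RNA per cell cannot be told apart.

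**Figure D1:**
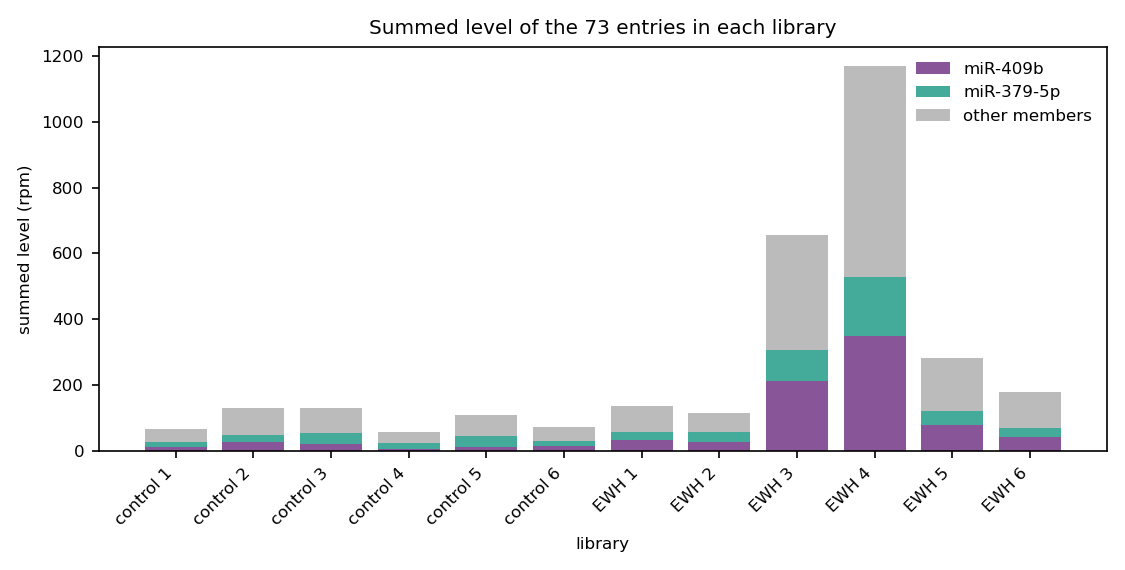
Summed level (rpm, from 0) of the 73 entries in each of the 12 libraries, with miR-409b, miR-379-5p and the other members stacked. EWH 4 reaches 1168 rpm and EWH 3 657 rpm, while the 6 control libraries lie between 57.3 and 132.7 rpm.

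Of the 73 entries, 21 reached 1 rpm in at least 6 of 12 libraries and were tested, from 19 hairpin names; the other 52 were too low. An entry could pass through the EWH libraries alone, and 10 of the 21 reached 1 rpm in all 6 controls, 15 in at least 3, and 6 in only 2 of them. All 21 had a higher mean in EWH, and their median log2 fold change was 1.19 on the log2(rpm + 1) scale and a range of 0.52 to 2.32. Over all 303 tested miRNAs the median was −0.06, with 121 higher and 182 lower. Without the low filter, 69 of the 73 entries were higher and 4 lower (median 0.37), against 302 higher and 339 lower of all 641 (median −0.01). Without EWH 3 and EWH 4 the median of the 21 was 0.61, with 20 higher and 1 lower.

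None of the 21 passed limma at an adjusted p under 0.05 (Benjamini-Hochberg over all tested miRNAs), as for 0% of the 303 miRNAs; adjusted p ran from 0.128 to 0.460. At an unadjusted limma p under 0.05, 19 of the 21 were higher in EWH, where 15.2% of all tested miRNAs were. On recovered whole reads, edgeR's quasi-likelihood test called 15 of the 21 at an adjusted p under 0.05, all higher, where it called 11.2% of all tested miRNAs in that direction. DESeq2 called 19, all higher, where it called 15.2% of all tested miRNAs. Among the 15 entries at 1 rpm in at least 3 controls, edgeR called 9 and DESeq2 13, and the 6 that passed the filter mainly through EWH libraries were called by both. The edgeR count was 0 without control 1, 4, 5 or 6, without EWH 3, and without EWH 4. It was also 0 without EWH 3 and EWH 4 together. There 13 of the 21 had an unadjusted edgeR p under 0.05, all higher, against 37 of all 303 in that direction. When 1 of these 6 libraries was left out, the smallest edgeR adjusted p among the 21 lay between 0.054 and 0.075. Without EWH 2, limma called 10 of the 21, all higher, and 22 of all 303 in that direction.

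**Figure D2:**
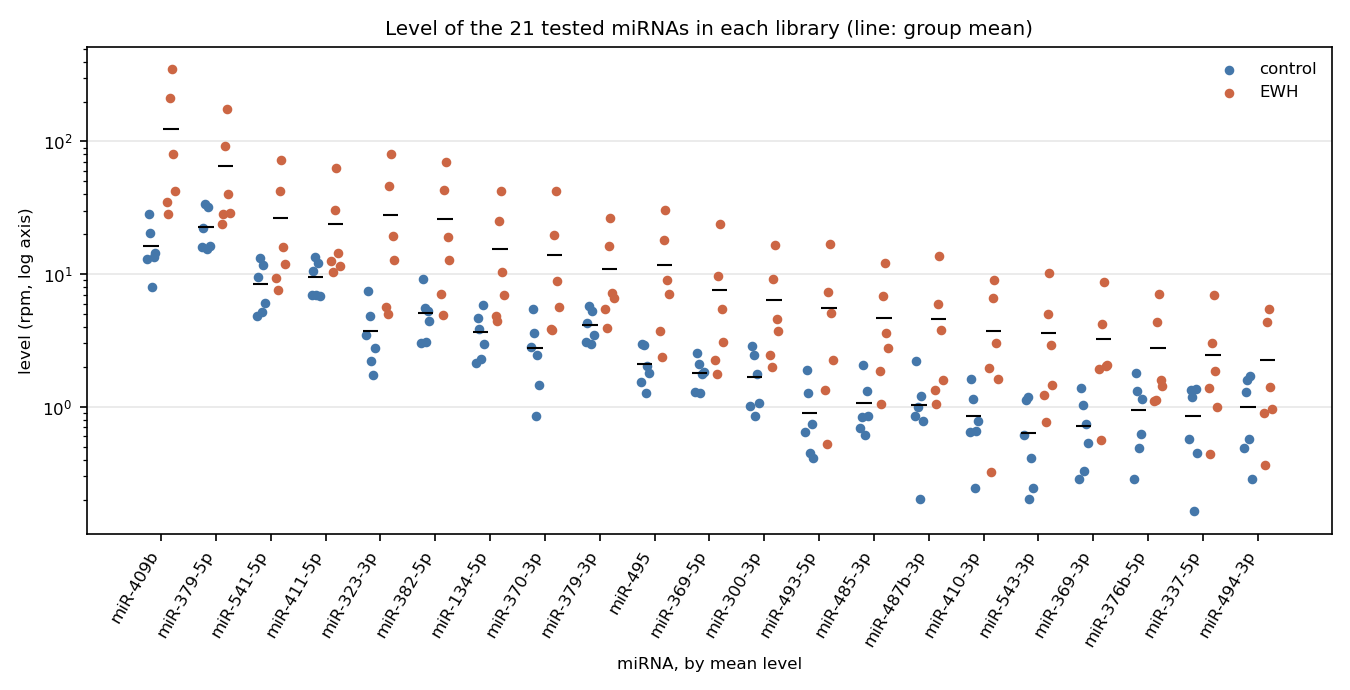
Level (rpm, log axis) of the 21 tested miRNAs, ordered by mean level, with 1 point for each of 6 control and 6 EWH libraries and a line at each group mean. The 2 highest points of each miRNA are EWH 4 and EWH 3, and miR-409b is the only one whose groups do not overlap.

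The tested miRNAs agreed on the highest libraries, but not on the lower ranks. Control 5 was the lowest library for miR-323-3p (1.73 rpm), but it lay above EWH 1, EWH 2 and EWH 6 for miR-379-5p (31.9 rpm). EWH 4 was the highest library and EWH 3 the next in all 21, where this order held in 16.5% of all 303 tested miRNAs and in 10.3% of the 282 outside the list. EWH 5 came next in 18 of the 21, where this full order held in 32 of all 303 and in 14 of the 282 outside the list. Within the list, EWH 4 stood 5.49 to 21.5 times above the control mean, with a median of 11.6, and EWH 3 stood 3.20 to 13.1 times above it, with a median of 5.86. At least 4 EWH libraries lay above the highest control in 15 of the 21. The share of all tested miRNAs that did so was not computed, and 6 of the 21 reached 1 rpm in fewer than 3 controls. The levels of the members in each library also correlated with the control mean. Across the 21 miRNAs, which are not independent, Pearson's r on the log2 scale was 0.95 to 0.99 for controls (each against the other 5). It was 0.92 to 0.98 for EWH libraries. Pearson's r does not measure order, and the order at the top did change. MiR-409b lay below miR-379-5p in every control except control 2, and above it in every EWH library.

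**Figure D3:**
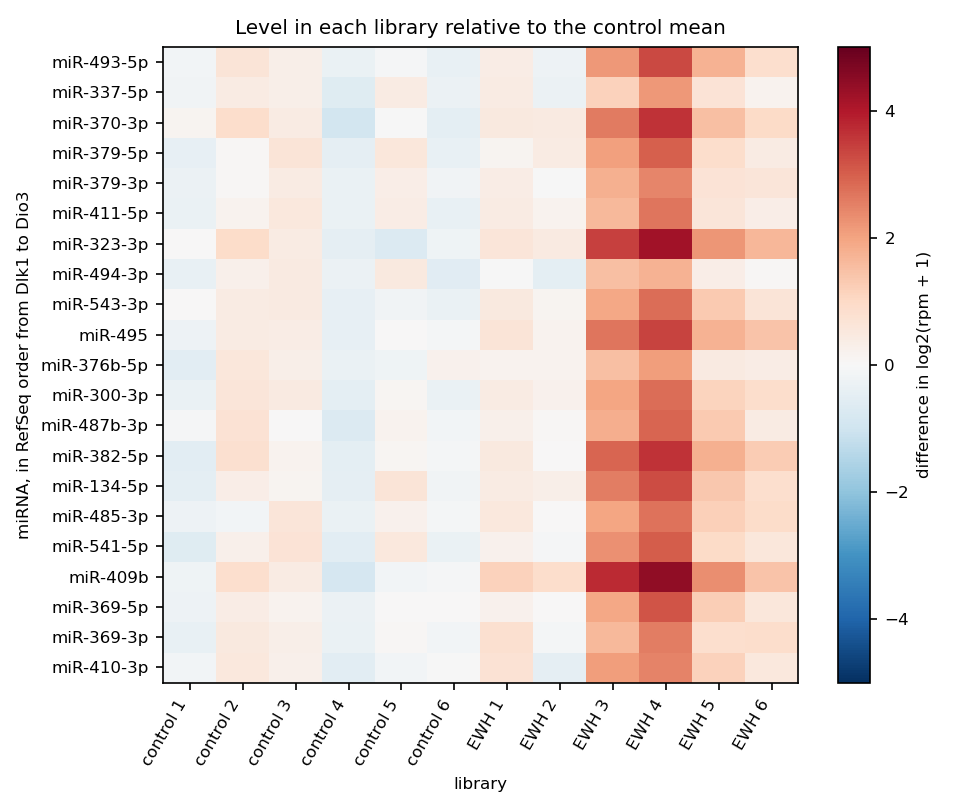
Difference of each library from the control mean in log2(rpm + 1), for the 21 tested miRNAs in RefSeq order (rows) and 12 libraries (columns), red where higher and blue where lower. The columns of EWH 3 and EWH 4 are red in every row, and the rows of miR-409b and miR-323-3p are the darkest.

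MiR-409b and miR-323-3p had the largest differences. MiR-409b was at 8.05 rpm in the lowest control, 14.03 in the median and 28.2 in the highest, and at 28.6, 61.7 and 351 rpm in EWH. Every EWH library lay above every control, by a margin of less than 1 rpm at the nearest pair; 0.33% of the 303 tested miRNAs, which is miR-409b alone, lay wholly above. Its log2 fold change was 2.32 (SE 0.59; limma adjusted p = 0.128, edgeR adjusted p = 0.031), and 1.44 (SE 0.35) without EWH 3 and EWH 4. MiR-323-3p, from the 3p arm of a hairpin early in the cluster, read 1.73, 3.14 and 7.43 rpm in control and 4.97, 16.2 and 80.0 rpm in EWH (lowest, median and highest). EWH 1 and EWH 2 lay within the control range and the other 4 above it. Its log2 fold change was 2.08 (SE 0.61; limma adjusted p = 0.128, edgeR adjusted p = 0.031), and 1.22 (SE 0.41) without EWH 3 and EWH 4.

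MiR-379 opens the cluster and miR-411 follows it, and both had smaller differences. MiR-379-5p read 15.5, 19.2 and 33.7 rpm in control (lowest, median and highest) and 23.9, 34.5 and 177 rpm in EWH. Only EWH 3, EWH 4 and EWH 5 lay above the highest control. Its log2 fold change was 1.15 (SE 0.46; limma adjusted p = 0.168, edgeR adjusted p = 0.052), and 0.46 without EWH 3 and EWH 4. MiR-411-5p read 6.78, 8.73 and 13.5 rpm in control and 10.3, 13.5 and 63.0 rpm in EWH, with 3 EWH libraries above the highest control and a log2 fold change of 0.97 (SE 0.40; limma adjusted p = 0.171), and 0.38 without EWH 3 and EWH 4. The passenger arm miR-379-3p had a control mean of 4.13 ± 1.17 rpm and an EWH mean of 11.0 ± 8.66 rpm (SD, 6 libraries each), at log2 0.98 (SE 0.38), and edgeR called it at adjusted p = 0.037; its log2 fold change was 0.41 without EWH 3 and EWH 4.

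The balance between the 2 most abundant entries differed between the groups. MiR-409b made up 12.3% to 21.3% of the summed level of the 73 entries in control and 23.8% to 32.5% in EWH, without overlap. MiR-379-5p made up 16.7% to 28.9% in control and 14.1% to 24.9% in EWH, with overlap. The log2 ratio of miR-409b to miR-379-5p, each with 1 rpm added, had a control mean of −0.47 ± 0.55 and an EWH mean of 0.71 ± 0.44 (SD, n = 6 per group; two-sided exact permutation over 924 splits, p = 0.0043), and 5 of 6 EWH libraries lay above the highest control. Without EWH 3 and EWH 4 the groups differed by 0.98 in place of 1.18 (exact permutation p = 0.019). This was the only ratio between entries of different hairpins tested, and it was chosen after the levels were seen. It set the entry with the largest log2 fold change of the 21 (2.32) against one with 1.15. A difference was thus built into the choice, and the p-values of this ratio are descriptive only. The reads of miR-409b and miR-409a-3p, which cannot be told apart by strand, bear on the first member of the ratio.

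Among the miRNAs known from neurons, miR-134-5p, which limits dendritic spine size through Limk1, read 2.15, 3.43 and 5.87 rpm in control (lowest, median and highest) and 4.40, 8.60 and 42.1 rpm in EWH. In EWH, 4 libraries were above the highest control. Its log2 fold change was 1.45 (SE 0.49; limma adjusted p = 0.134, edgeR adjusted p = 0.031), and 0.71 without EWH 3 and EWH 4. MiR-382-5p, whose hairpin precedes that of miR-134, read 3.05, 4.85 and 9.19 rpm in control and 4.88, 16.0 and 70.6 rpm in EWH, also with 4 EWH libraries above the highest control. It had a log2 fold change of 1.68 (SE 0.55; limma adjusted p = 0.129, edgeR adjusted p = 0.031), and of 0.89 without EWH 3 and EWH 4. MiR-485-3p, from a hairpin known for its role at synapses, had a control mean of 1.06 ± 0.55 rpm and an EWH mean of 4.70 ± 4.13 rpm (SD, 6 libraries each), at log2 1.22 (SE 0.39) with all libraries and 0.66 without EWH 3 and EWH 4.

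Of the 4 miRNAs known from studies of vessel growth, 3 were tested. MiR-495 read 1.26, 1.91 and 2.96 rpm in control (lowest, median and highest) and 2.38, 8.06 and 30.3 rpm in EWH, and 5 EWH libraries lay above the highest control. Its log2 fold change was 1.67 (SE 0.47; limma adjusted p = 0.128, edgeR adjusted p = 0.031), and 0.99 without EWH 3 and EWH 4. MiR-487b-3p, which has been studied in the aorta of hypertensive rats as a regulator of Irs1, read 0.20, 0.92 and 2.21 rpm in control and 1.05, 2.71 and 13.6 rpm in EWH. Only 3 EWH libraries lay above the highest control, and the log2 fold change was 1.13 (SE 0.45; limma adjusted p = 0.163, edgeR adjusted p = 0.046), or 0.51 without EWH 3 and EWH 4. MiR-494-3p had the smallest difference of the 21, with means of 0.989 ± 0.615 rpm for control and 2.24 ± 2.11 rpm for EWH (SD, 6 libraries each), log2 0.52 (SE 0.38; limma adjusted p = 0.460). Without EWH 3 and EWH 4 its log2 fold change was −0.03. MiR-329-3p and miR-329-5p were too low to test, at 41 and 25 reads over the 6 controls and 176 and 125 reads over the 6 EWH libraries.

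Hairpins nearer Dlk1 than miR-379 gave 3 tested entries. MiR-370-3p, reported to act on lipid metabolism, read 0.85, 2.64 and 5.43 rpm in control (lowest, median and highest) and 3.79, 7.29 and 41.99 rpm in EWH, at log2 1.60 (SE 0.53; limma adjusted p = 0.129, edgeR adjusted p = 0.031). In EWH, 4 libraries lay above the highest control. MiR-493-5p had means of 0.90 ± 0.57 and 5.57 ± 6.09 rpm (SD, 6 libraries each) at log2 1.35 (SE 0.51), and miR-337-5p 0.85 ± 0.52 and 2.44 ± 2.38 rpm (SD, 6 libraries each) at log2 0.72 (SE 0.36). Without EWH 3 and EWH 4 the log2 fold changes were 0.85 for miR-370-3p, 0.66 for miR-493-5p and 0.24 for miR-337-5p. With all libraries the 3 had a median log2 fold change of 1.35, and the 18 from miR-379 onward had a median of 1.18 and a range of 0.52 to 2.32. The difference between these stretches was not tested.

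Among the other entries of the cluster, miR-541-5p was the third most abundant entry, at 4.83, 7.72 and 13.1 rpm in control (lowest, median and highest) and 7.55, 14.02 and 72.0 rpm in EWH. It had 3 EWH libraries above the highest control and was not called by edgeR (log2 1.17, SE 0.51; limma adjusted p = 0.183, edgeR adjusted p = 0.059). MiR-369-5p had a control mean of 1.80 ± 0.49 rpm and an EWH mean of 7.64 ± 8.37 rpm (SD, 6 libraries each; log2 1.19, SE 0.46). MiR-369-3p, reported to bind AU-rich elements, had means of 0.72 ± 0.43 and 3.25 ± 2.94 rpm (SD, 6 libraries each; log2 1.10, SE 0.36). MiR-410-3p, from the last hairpin of the cluster, had means of 0.85 ± 0.48 and 3.76 ± 3.33 rpm (SD, 6 libraries each; log2 1.09, SE 0.42). MiR-543-3p rested on 0.632 ± 0.434 rpm for control and 3.58 ± 3.56 rpm for EWH (log2 1.22, SE 0.40), with 5 EWH libraries above the highest control. MiR-300-3p rested on 1.68 ± 0.85 and 6.42 ± 5.62 rpm (log2 1.23, SE 0.41), and may hold reads of miR-381-3p, which it closely resembles. MiR-376b-5p, from a family known for RNA editing of its seed, rested on 0.941 ± 0.575 and 2.77 ± 2.43 rpm (log2 0.80, SE 0.35), and only EWH 3 and EWH 4 lay above its highest control. Without EWH 3 and EWH 4 the log2 fold changes were 0.42 for miR-541-5p, 0.50 for miR-369-5p, 0.61 for miR-369-3p, 0.49 for miR-410-3p, 0.65 for miR-543-3p, 0.66 for miR-300-3p and 0.30 for miR-376b-5p. Of these 7 entries edgeR called 5 with all libraries, all except miR-541-5p and miR-376b-5p.

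**Figure D4:**
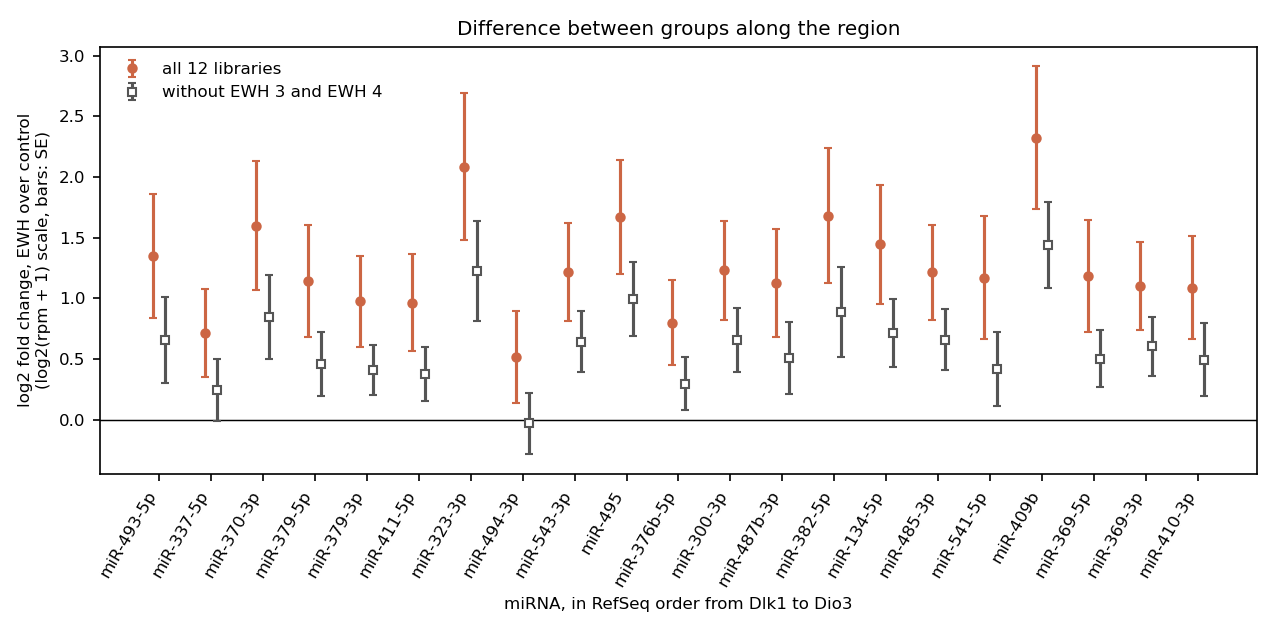
Log2 fold change of EWH over control (log2(rpm + 1) scale, bars are SE) for the 21 tested miRNAs in RefSeq order from Dlk1 to Dio3, with all 12 libraries (circles) and without EWH 3 and EWH 4 (squares). All circles lie between 0.52 and 2.32, and without the 2 libraries only miR-494-3p lies below 0, at −0.03.

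The 52 entries below the limit for testing held 831 reads in the 6 controls and 4169 in the 6 EWH libraries, of which EWH 4 gave 2045 and EWH 3 1069. Means were higher in EWH for 48 of them and lower for 4. The 4 were miR-494-5p, miR-376c-5p, miR-543-5p and miR-381-3p, with 5, 4, 4 and 1 reads in all, which is too few to give a direction. The highest of the 52 were miR-485-5p at 78 control and 483 EWH reads, miR-409a-5p at 68 and 374, miR-380-3p at 37 and 349, miR-411-3p at 99 and 230 and miR-539-5p at 68 and 261. MiR-323-5p had 4 reads in 3 controls and 170 reads in all 6 EWH libraries. MiR-758-3p, whose hairpin follows that of miR-323, had 12 control and 130 EWH reads, of which EWH 3 gave 38 and EWH 4 61. All of its EWH libraries lay above all controls, but the nearest pair held 5 reads against 4. Of all 641 entries, 2 lay wholly above in this way. No control read was seen for 9 of the 52, among them miR-667-3p and miR-666-5p, which had 32 and 17 reads in 5 EWH libraries each. MiR-381-3p and miR-376a-3p had 1 and 3 reads over all 12 libraries, and the hairpin between them in RefSeq order, miR-300, gave a tested entry. The 18 bases listed for miR-381-3p closely resemble the start of miR-300-3p, and miR-376a-3p differs from miR-376b-3p at 3 of 21 bases. The aligner and counter are unknown here, so reads of each pair may have been listed under the other name, which was not tested.

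Which arm dominated varied from hairpin to hairpin. Of 31 hairpins with both arms listed, 22 had at least 100 reads in all, 11 with more reads from the 5p arm and 11 with more from the 3p arm. MiR-409a counted among the former, at 442 reads against 243. Its dominant arm is uncertain, since reads of miR-409a-3p cannot be told apart from the 20673 listed for miR-409b. The 5p arm gave 85.3% of reads for miR-379, 93.7% for miR-411, 97.3% for miR-382 and 99.4% for miR-134. For miR-323 it gave 3.60%, for miR-370 1.13% and for miR-410 0.74%. By group, the 5p arm of miR-323 gave 4 of its control reads (0.73%) and 170 of its EWH reads (3.97%), a difference that was not tested. The ratio of both arms could be tested for miR-379 and miR-369. For miR-379 the log2 ratio of 5p to 3p had means of 2.16 ± 0.18 for control and 2.33 ± 0.31 for EWH, and for miR-369 of 0.73 ± 0.13 and 0.81 ± 0.44 (SD, 6 libraries each). The differences of 0.17 (SE 0.15) and 0.08 (SE 0.18) did not pass limma (adjusted p = 0.591 and 0.867 over 67 hairpins, of which 0% were called and 13 had an unadjusted p under 0.05).

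**Figure D5:**
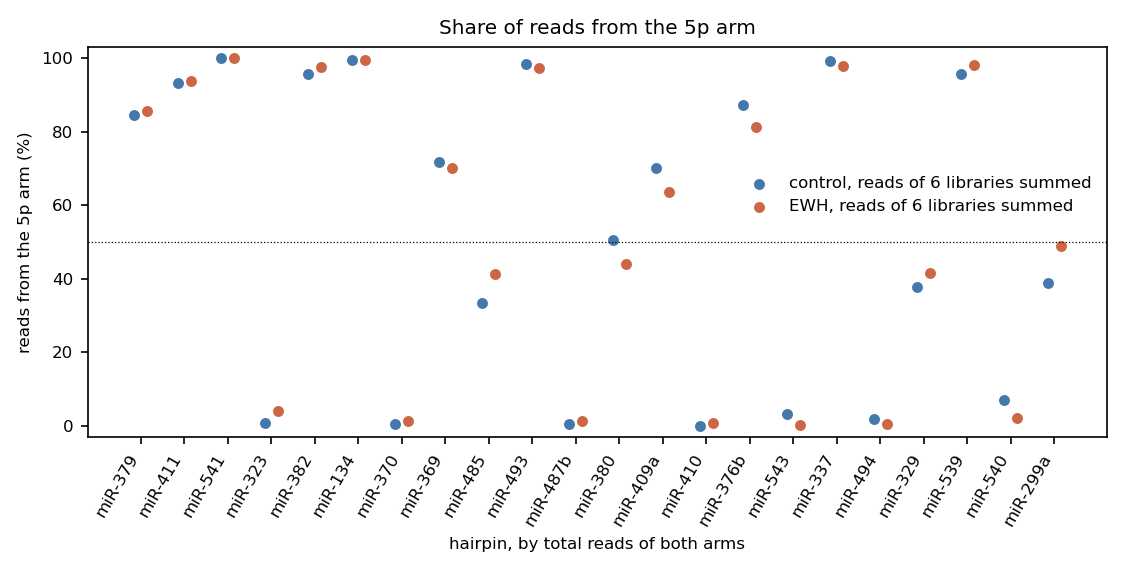
Share of reads from the 5p arm (%, reads of 6 libraries summed per group) for the 22 hairpins with at least 100 reads, ordered by total reads, in control (blue) and EWH (orange). MiR-379 stays near 85% in both groups, while miR-323, miR-370 and miR-410 lie near 0.

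Other miRNAs between Dlk1 and Dio3 were compared as listed. The list of Rtl1-antisense hairpins held 10 listed entries, and all 6 tested had higher EWH means, at a median log2 fold change of 1.43. Of these, limma called 0, all 6 had an unadjusted limma p under 0.05, and edgeR called 5. Among the 6, miR-3543 (log2 1.24) is annotated on the minus strand, opposite to miR-127 and miR-434 beside it. The name of the list therefore does not describe miR-3543, and the strand setting of the counting is unknown here. Their summed level was 42.7 to 133.2 rpm in control and 78.5 to 943 rpm in EWH, with EWH 4 highest and at most 193 rpm without EWH 3 and EWH 4. A further 11 entries of the region lay outside both lists, and only miR-1247-5p was tested. MiR-1247-5p, from the hairpin nearest Dio3, had a control mean of 2.49 ± 1.90 rpm and an EWH mean of 2.08 ± 0.50 rpm (SD, 6 libraries each; log2 −0.01). MiR-6331, whose hairpin lies inside the cluster, had means of 0.47 ± 0.20 and 4.12 ± 4.45 rpm (SD, 6 libraries each), and miR-1188-5p had no control read and reached 1.56 rpm in EWH 4.

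Markers of nervous tissue moved with the cluster in part, and so did an epithelial marker. The glial list held 5 entries, of which 3 were tested, 2 higher and 1 lower, and it summed to 38.8 to 96.4 rpm in control and 52.0 to 452 rpm in EWH, highest in EWH 4 (452 rpm) and EWH 3 (296 rpm) and at most 187 rpm in the other EWH libraries. Both arms of miR-338 were the higher ones (log2 1.49 for miR-338-5p and 1.47 for miR-338-3p, not called by limma, and each with edgeR adjusted p = 0.031), while miR-219a-5p, a defining oligodendrocyte miRNA, stayed at or below 0.082 rpm, under the value of 3 reads. The neuronal list held 15 entries, of which 5 were tested, 4 higher and 1 lower, and it summed to 662 to 1395 rpm in control and 671 to 1814 rpm in EWH, again highest in EWH 4 and at most 1197 rpm without EWH 3 and EWH 4. The highest of these entries, miR-128-3p, had means of 770 ± 264 rpm for control and 683 ± 126 rpm for EWH (limma adjusted p = 0.744). MiR-9a-5p had means of 64.2 ± 21.8 and 250 ± 175 rpm (SD, 6 libraries each; limma adjusted p = 0.128, edgeR adjusted p = 0.031). MiR-7a-5p, the next, had means of 114.5 ± 89.4 and 138 ± 111 rpm (limma adjusted p = 0.859). The largest neuronal difference, named once its values were known, was that of miR-129-5p at log2 2.22 (limma adjusted p = 0.168, edgeR adjusted p = 0.102), with 167 rpm in EWH 4 and 121 rpm in EWH 3 against 1.10 to 31.4 rpm in control. The neuron-specific miR-124-3p read 0.041 to 0.626 rpm in control and 0.161 to 4.98 rpm in EWH, highest in EWH 4. The muscle list (5 tested, 2 higher and 3 lower) summed to 428.8 to 1368 rpm in control and 713 to 1439 rpm in EWH. EWH 3 was the highest of all 12 libraries for this list, and EWH 4 was the lowest EWH library. Its most abundant entry, miR-1-3p, had a log2 fold change of 1.14 (limma adjusted p = 0.128, edgeR adjusted p = 0.059). MiR-1-3p read 1216 rpm in EWH 3, its highest EWH library, and 469 rpm in EWH 4, its lowest. The summed lists for epithelium, erythrocytes, leukocytes, and liver and gut were highest in control 6, EWH 5, control 1 and control 6. Within the EWH group, EWH 4 was the highest library for the epithelial and leukocyte lists. No entry of these lists was at 0 in every library, and the part of these markers in the values of the cluster was not tested.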

How the data were processed

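Small RNA of 12 rat aorta libraries (6 control, 6 EWH) was sequenced; per the labels' protocols, inserts of 15 to 35 nt were taken. The authors deposited 1 table in reads-per-million (RPM) units: each value divided by a library's smallest step was a whole number (tolerance 0.01 read) for 100% of values, and the step did not vary with the miRNA. The build was rn6 per the submitters' processing notes; aligner, counter, annotation and strand setting: not given in the sources used here. This table is named for TPM, but no length term was found. All columns were mapped through the sample descriptions.

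MiRNAs were tested where 6 or more libraries reached 1 rpm (303 of 641) on log2(rpm + 1) with limma 3.58.1 (trend, two-sided, R 4.3.3), Benjamini-Hochberg adjusted over all tested, threshold 0.05. Fold changes on this scale understate changes of low miRNAs. Recovered reads were tested with edgeR 4.0.16 (quasi-likelihood, TMM) and DESeq2 1.42.0 as alternatives. Procedures were tested on simulated counts. No 2 libraries of a group agreed within sampling noise (30 pairs, chi-square per degree of freedom at least 118). The log2 ratio of 5p to 3p arms was fitted over 67 hairpins.

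The members, lists, tests and alternatives were chosen with earlier results of these data known. Every tested member is named, with the 5 highest untested; further miRNAs were named once their values were known. RefSeq (GRCr8, another build than the data) served for sequences, strands and hairpin order, and gave a mature sequence for 581 of the 641 entries. Other alternatives were other filters, pseudocounts (0.1 and 5), scalings and variance settings, a replicate block, and libraries left out; fits without EWH 3 and 4, edgeR with libraries left out, edgeR and DESeq2 with the block, and the miR-409b to miR-379-5p ratio were added after seeing the data. Figures used Python 3.11.15 and matplotlib 3.10.9.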

Additional observations from a re-analysis of the deposited data

How the results depend on the processing

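The 0 limma calls among the 21 tested miRNAs held with no filter (73 entries), a filter at 10 rpm (4 entries), pseudocounts of 0.1 and 5, median-of-ratios scaling, and limma without trend or with robust variances. Quantile normalization called 3 (miR-409b, miR-323-3p and miR-495, each at limma adjusted p = 0.047; 5 of all 303 were called higher and 3 lower), edgeR 15 (34 of 303 higher) and DESeq2 19 (46 of 303 higher). Leaving out a library gave 0 to 10 calls with limma, above 0 only without EWH 2 (22 of 303 higher), and 0 to 18 with edgeR. The edgeR counts, with those called higher among all 303, were 14 (26) without control 2, 13 (28) without control 3, 17 (35) without EWH 1, 18 (39) without EWH 2, 11 (24) without EWH 5 and 16 (29) without EWH 6, and 0 (0) without any other single library. The median log2 fold change was 2.08 with edgeR and 2.08 with DESeq2, which add no 1 rpm, and 0.81 to 1.42 with a library left out. It was 1.64 at a pseudocount of 0.1 and 0.68 at 5. Entries with every EWH library above every control numbered 2 with no filter (2 of all 641), 2 under median-of-ratios scaling (5 of 303), 3 after quantile normalization (3 of 303), and 1 to 5 with a library left out (5 without EWH 2, with 8 of 303, and 3 without control 2, with 4 of 303). Without EWH 3 and EWH 4, miR-494-3p was the only one of the 21 to change sign, to −0.029. The miR-409b to miR-379-5p ratio differed by 1.03 to 1.34 with a library left out and kept an exact permutation p of at most 0.0087 in these. Such p-values are descriptive only, since the pair was chosen after the levels were seen. Arm ratios of members gave 0 limma calls in each alternative run; none could be fitted for them at a filter of 10 rpm. Whether replicate numbers pair the samples is unknown here. Same-numbered libraries' deviations correlated at −0.50 to 0.31. No common effect was seen in these values, but they cannot exclude one, nor that such libraries were handled together. With the replicate block limma called 0 (smallest adjusted p = 0.223), edgeR 0 and DESeq2 18 (44 of 303 higher).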
